A study of Mus musculus with 12 samples.

Results

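The genes described here are 32 cell cycle and DNA replication genes of the mouse, out of 25069 genes in the deposited table. They were chosen by symbol from a list of known proliferation genes, with earlier results of these data known. Livers of 12 female mice were sequenced, 1 library per mouse, in 3 groups of 4. All 12 mice were themselves wild type at Khdc3, which encodes an oocyte protein. The WT mice (libraries WT 116, WT 117, WT 118 and WT 120) descended from wild-type ancestors alone. WTMM mice (WTMM 6 to WTMM 9) had Khdc3-null grandmothers on their mothers' and their fathers' side, and the WTPP mice (WTPP 2, WTPP 3, WTPP 6 and WTPP 7) had Khdc3-null grandfathers on both sides. The sources used here do not give strain, age or hour of collection. The comparisons ask whether ancestry alone goes with a different liver transcriptome, and whether the sex of the null ancestors matters.

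Hepatocytes of the adult liver rarely divide, and they re-enter the cycle mainly after loss of liver tissue. In G1 the factors Cdc6 and Cdt1 load the Mcm helicase onto replication origins, a step called licensing, and E2F factors with cyclin E switch on the genes of S phase. Cyclin-dependent kinase 1 with its A and B cyclins then drives entry into mitosis, spindle motors and kinetochore proteins separate the chromosomes, and the anaphase-promoting complex ends mitosis by marking the cyclins for destruction. The replication genes are typically read in late G1 and S phase, under E2F factors, and the mitotic genes in G2 and M phase, under the DREAM, B-Myb and FoxM1 factors.

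Values are normalized counts, that is reads divided by 1 factor per library, and each library held 25070718 to 35843972 reads counted over genes. The labels name the cells as hepatocytes and the tissue as liver. Hepatocyte markers summed to between 2864820 and 4447870 normalized counts per library, and markers of macrophages, lymphocytes, endothelium and stellate cells were present in all 12 libraries, so that a change in the number of cells of a type cannot be told apart from a change in RNA per cell. The 7 members whose exons overlap those of another gene on the opposite strand are uncertain, since the sources used here give no strand setting for the counting. These were Ube2c, Kif20a, Cdc20, Ccna2, Ccne2, Mcm7 and Plk1, with 53 to 1271 shared bases. Reads of Pcna, Tyms, Ccnb1 and Ccnb2 may also be shared with pseudogenes of those genes that the table lists.

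Between the groups, 0 of the 31 tested members changed in any of the 3 comparisons, while individual mice within a group differed by several fold and did so in the same direction for most of the mitotic genes. The tests were made with limma on log2(normalized count + 1), with Benjamini-Hochberg adjustment over 14473 genes and a threshold of 0.05. Bub1, a checkpoint kinase with a mean of 9.06 normalized counts, fell below the minimum mean of 10 for testing, and Plk1, with a mean of 12.4, was just above it. In WTMM against WT, 4.44% of all tested genes rose and 5.94% fell. Without adjustment, 27.3% of genes had a p under 0.05, against 1 of 31 members (Mcm7). The libraries of the groups did not overlap for 18.8% of genes and for 0 members. In WTPP against WT, 4.68% of genes rose and 5.53% fell. An unadjusted p under 0.05 was found for 26.6% of genes and for 3 members, Mcm2, Mcm3 and Mcm7. Groups without overlap made up 15.1% of genes and 1 member, Mcm7. In WTMM against WTPP, 2.29% of genes rose and 1.88% fell, an unadjusted p under 0.05 was found for 18.6% of genes and 1 member (Plk1), and groups without overlap made up 13.2% of genes and 0 members. With voom on the recovered reads the count of changed members was also 0 in each comparison. In that fit 1, 4 and 2 members had an unadjusted p under 0.05, against 27.5%, 26.9% and 18.1% of all genes. With a weight for each library, 1 member fell in WTMM (Mcm7), where 10.2% of all genes fell, and 3 in WTPP (Mcm2, Mcm3 and Mcm7), where 7.8% fell. Both comparisons with WT share the 4 WT libraries.

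The estimates of the fold changes were nevertheless wide, so that sizeable differences could not be detected. The median standard error of a member's log2 fold change was 0.49, against 0.14 over all tested genes. In WTMM against WT, 20 of 31 members had a positive log2 fold change, with a median of 0.22. In WTPP against WT, 26 of 31 were negative, with a median of -0.35. In WTMM against WTPP, 30 of 31 were positive, with a median of 0.47, and Pcna was the exception at -0.04. The medians over all 14473 genes were 0.00035, -0.0076 and -0.00037. Since many members vary together from mouse to mouse, these counts of signs do not stand for independent genes.

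**Figure D1:**
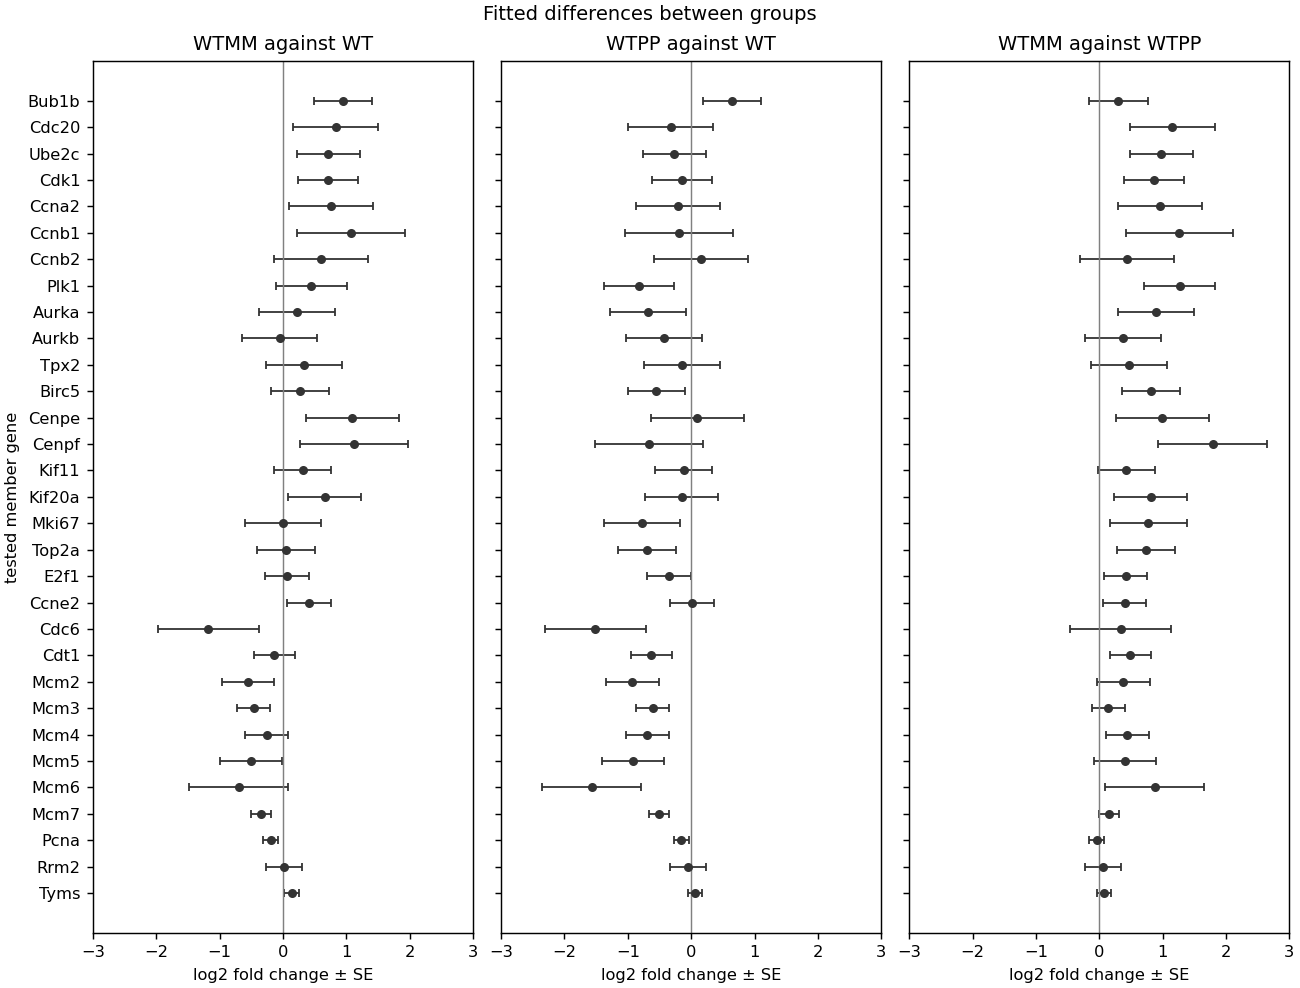
Log2 fold change of each tested member (horizontal axis) in each lineage against WT and WTMM against WTPP, as points with bars of 1 standard error from limma, 4 libraries per group. The origin licensing genes from Cdc6 to Mcm7 lie left of 0 in both comparisons with WT, and 0 of the 31 members passed the adjusted threshold.

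Seen library by library, many members shared their high and low mice within a group. WTPP 6 held the highest value among the 4 WTPP libraries for 29 of 31 members, and WTPP 7 the lowest for 18. Among the WTMM libraries, WTMM 8 was highest for 20 members and WTMM 6 lowest for 26. Among the WT libraries, WT 116 was highest for 16 and WT 117 lowest for 18. Over all 12 libraries, WTPP 7 had the lowest value for 16 members and WTMM 8 the highest for 12.

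**Figure D2:**
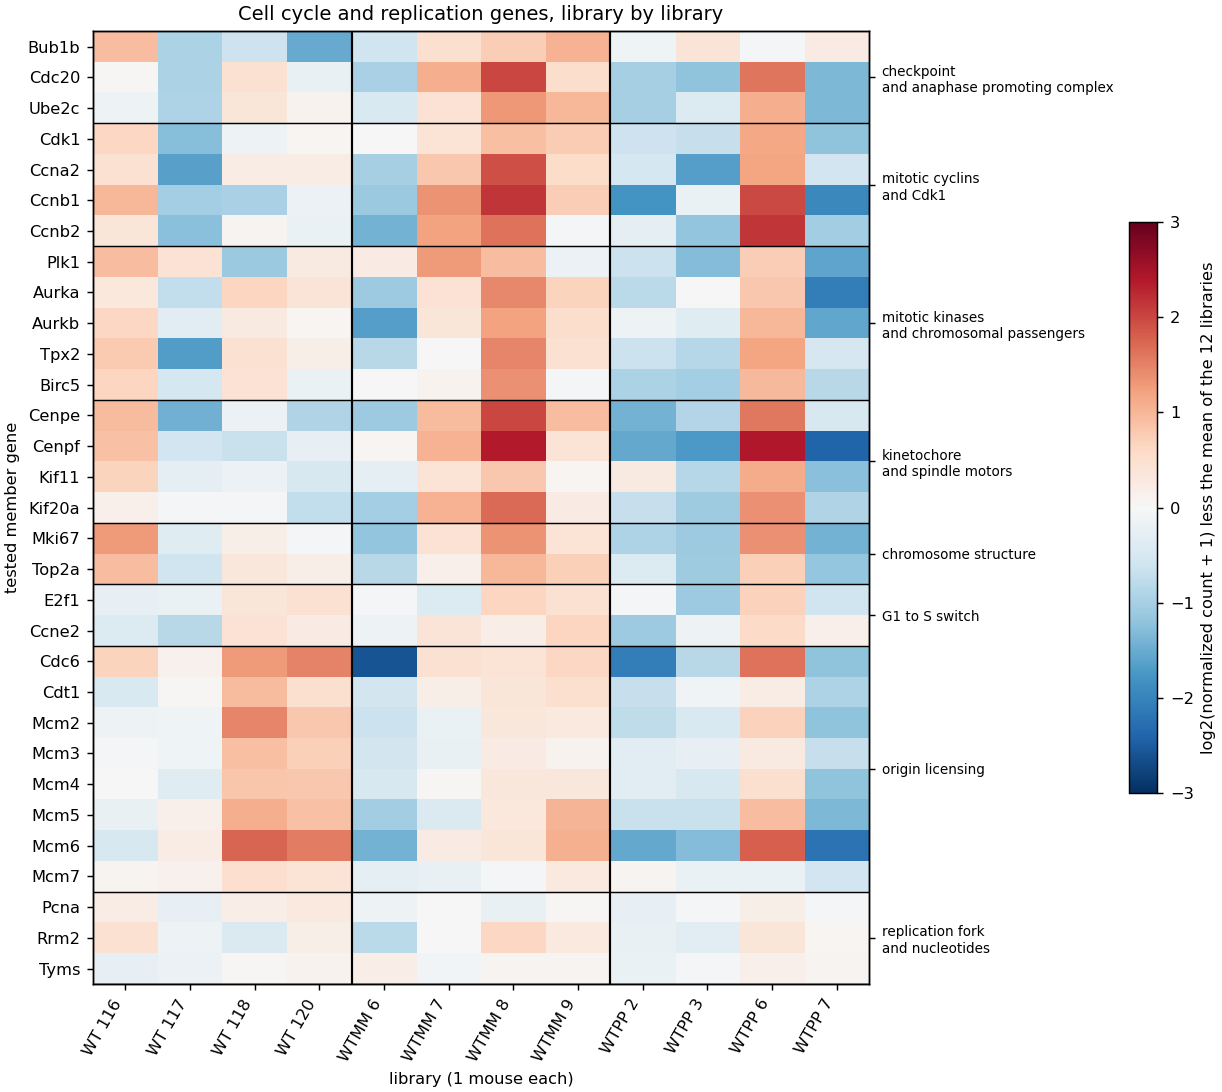
Each row is a tested member and each column a library; the colour gives log2(normalized count + 1) less the mean of that gene over the 12 libraries, from blue (lower) to red (higher), with black lines between roles and groups. For the mitotic genes WT 116, WTMM 8 and WTPP 6 are the reddest columns of their groups, and WTMM 7 and WTMM 9 also lie above the gene's mean for 17 and 15 of 18. For the licensing genes in WT the red columns are WT 118 and WT 120.

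The mitotic genes came in 5 roles, 19 genes in all, and followed the same few mice. Of the 18 tested, WT 116 was highest among WT for 15, WTMM 8 among WTMM for 16 and WTPP 6 among WTPP for 17. Mki67, the source of the Ki-67 antigen that coats mitotic chromosomes and marks cycling cells, measured 213, 67.7, 99.2 and 83.5 normalized counts in WT 116, 117, 118 and 120. It measured 38.1, 119, 225 and 115 in WTMM 6 to 9, and 45.4, 40.7, 226 and 31.97 in WTPP 2, 3, 6 and 7. WT 116, WTMM 8 and WTPP 6 were each the highest of their group by a wide margin, and all 3 groups overlapped. The log2 fold change was -0.003 ± 0.60 (SE) in WTMM and -0.77 ± 0.60 in WTPP against WT, with adjusted p = 0.998 and 0.444 from limma. The first turned positive, at 0.09, with quantile normalization and at 0.0017 with TMM factors.

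Top2a, the topoisomerase that untangles sister chromatids, measured 127, 43.5, 84.6 and 74.9 in the WT libraries, 37.0, 73.9, 132 and 109 in WTMM and 49.5, 31.0, 109.7 and 29.2 in WTPP, in the same library order. Its high and low libraries were those of Mki67. Cdk1, the kinase that triggers mitosis, measured 74.0, 19.2, 42.8 and 49.9 in WT, 48.1, 64.2, 89.8 and 81.8 in WTMM and 30.9, 29.2, 109 and 20.1 in WTPP. Only WTPP 6 exceeded the WTMM range for Cdk1, and the remaining WTPP libraries lay below it. For Cdk1 in WTMM against WTPP the log2 fold change was 0.86 ± 0.47 with adjusted p = 0.36.

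The cyclins that partner Cdk1 showed a wider range. Ccnb1, cyclin B1, ran from 2.74 in WTPP 7 to 62.5 in WTMM 8, and from 2.74 to 55.4 within WTPP alone. Ccnb2, cyclin B2, ran from 10.6 to 115 within WTPP and from 8.96 to 80.7 within WTMM. Ccna2, cyclin A2, ran from 14.6 to 118 in WTMM and from 8.85 to 69.8 in WTPP. All 4 genes of this role had positive log2 fold changes in WTMM against WT, from 0.60 to 1.07, none past the threshold.

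The checkpoint and anaphase genes included the 1 mitotic member that was not highest in WTPP 6. Bub1b, the spindle checkpoint protein BubR1, measured 50.6, 13.1, 16.7 and 8.58 in WT, 16.8, 37.0, 44.4 and 55.2 in WTMM and 23.7, 34.5, 25.5 and 31.1 in WTPP. WT 116 was again high, but WTPP 6 lay within the range of its group. The log2 fold change in WTMM against WT was 0.95 ± 0.46 (adjusted p = 0.199), and without WT 116 it was 1.44 with adjusted p = 0.0423. Cdc20, the activator of the anaphase-promoting complex, measured 98.7 in WTPP 6, where its companions held 11.9 to 15.5. Ube2c, the ubiquitin-conjugating enzyme of that complex, ran from 11.0 to 64.3 in WTPP and from 15.2 to 38.6 in WT. Bub1 held 1.01 to 17.1 normalized counts in WT, 3.52 to 22.7 in WTMM and 3.54 to 14.4 in WTPP.

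Of the mitotic kinases and their partners, Plk1 and Aurkb had the lowest means, 12.4 and 15.0 normalized counts, and Birc5 the highest, 42.0. Plk1, which matures centrosomes, ran from 4.18 to 20.2 in WT, 8.87 to 26.4 in WTMM and 2.74 to 17.7 in WTPP, and its log2 fold change in WTMM against WTPP was 1.27 ± 0.56 with an unadjusted p of 0.0397 and adjusted p = 0.242. Aurka, a spindle pole kinase, and its activator Tpx2 both peaked in WTMM 8, at 62.5 and 70.5. Aurkb, the kinase of the chromosomal passenger complex, ran from 3.36 to 30.7 within WTMM. Birc5, survivin, of the same complex, measured 96.7 in WTMM 8 and 73.2 in WTPP 6, against 35.5 to 39.6 and 17.7 to 20.1 in the other libraries of those groups. The 5 genes of this role were all lower in estimate in WTPP than in WT, by a median of -0.55 on the log2 scale, none past the threshold.

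Kinetochore proteins and spindle motors held the most variable member. Cenpf, a kinetochore protein of G2 and M phase, measured 26.5, 9.09, 8.35 and 11.7 in WT, 14.6, 29.9, 76.2 and 18.7 in WTMM and 4.13, 3.54, 77.6 and 1.83 in WTPP. WTPP 6 and WTMM 8 held the highest values, and the other WTPP libraries lay below every WT and WTMM library. Its log2 fold change in WTMM against WTPP was 1.79 ± 0.86 with adjusted p = 0.284. Cenpe, a kinetochore motor, ran from 5.16 to 48.8 in WTPP and from 6.72 to 66.0 in WTMM. Kif11, the motor that pushes spindle poles apart, ran from 13.7 to 75.4 in WTPP, 28.0 to 60.3 in WTMM and 24.2 to 54.5 in WT. Kif20a, a motor of cytokinesis, measured 111 in WTPP 6, where the rest of the group held 19.5 to 25.8, and 1271 of its 4338 exon bases are shared with Cdc23.

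The 8 licensing genes had a different order of mice, most of all in WT. WT 118 was highest among WT for 7 of 8 and highest of all 12 libraries for 6, while WT 116, the top WT library for the mitotic genes, was lowest among WT for 5. WTMM 9 was highest in its group for 6 and WTMM 6 lowest for 8. In WTPP, as for the mitotic genes, WTPP 6 was highest, here for 7, and WTPP 7 lowest, for 7. All 8 had negative log2 fold changes against WT in both lineages, with medians of -0.49 in WTMM and -0.80 in WTPP, and none passed the threshold.

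Mcm2, a subunit of the helicase ring, measured 119.9, 122, 374 and 236 in WT, 86.2, 116, 169 and 164 in WTMM and 78.4, 97.3, 219 and 57.6 in WTPP. WT 118 and WT 120 were above every WTMM library, and the other WT libraries lay inside the WTMM range. The log2 fold change was -0.55 ± 0.42 in WTMM (adjusted p = 0.418) and -0.93 ± 0.42 in WTPP (unadjusted p = 0.043, adjusted p = 0.171).

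Mcm7, another subunit, measured 396, 410.2, 526 and 500.1 in WT, 311, 319, 356 and 461 in WTMM and 396, 326, 327 and 252 in WTPP. Every WTPP library lay below the lowest WT library, WT 116, by under 1 normalized count in the case of WTPP 2. The mean was 458 ± 64.6 in WT and 325 ± 58.8 in WTPP (SD, n = 4 each), 1.42-fold lower (log2 fold change -0.50 ± 0.16, unadjusted p = 0.00679, adjusted p = 0.0589 from limma). Without WTPP 2 the adjusted p from limma was 0.035 at a log2 fold change of -0.60. Without WTMM 9 it was 0.0438, with the log2 fold change still at -0.50. In WTMM the mean was 362 ± 69.2 (log2 fold change -0.35 ± 0.16, adjusted p = 0.171).

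Mcm6, also a subunit of the ring, varied widely from mouse to mouse. It measured 63.1, 103, 301 and 259.8 in WT, 32.5, 105, 114 and 185 in WTMM and 29.9, 35.4, 310.4 and 18.3 in WTPP. WTPP 6 was the highest of all 12 libraries, and the other WTPP libraries lay below every WT library. The log2 fold change in WTPP against WT was -1.57 ± 0.78 (adjusted p = 0.215). Mcm3, Mcm4 and Mcm5 complete the ring: Mcm3 ran from 193 to 394 in WT, 143 to 251 in WTMM and 131 to 256 in WTPP, with a log2 fold change in WTPP of -0.60 ± 0.26 (adjusted p = 0.157). Mcm4 and Mcm5 had log2 fold changes of -0.69 and -0.91 in WTPP. Of the loaders, Cdt1 ran from 69.3 to 185 in WT, 64.9 to 132 in WTMM and 49.3 to 112 in WTPP. Cdc6 ran from 13.1 to 35.1 in WT and measured 2.06, 6.19, 38.8 and 4.57 in WTPP 2, 3, 6 and 7. In WTMM 6 Cdc6 was at 1.12 normalized counts, 1 read, against 15.9 to 18.7 in the other WTMM libraries. In WTMM and WTPP against WT the log2 fold changes were -0.14 and -0.63 for Cdt1, and -1.18 and -1.52 for Cdc6.

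Of the replication fork and nucleotide genes, Tyms and Pcna were the steadiest of all tested members. Their SDs within groups on the log2 scale were 0.148 and 0.184, against 0.458 for Rrm2. Pcna, the sliding clamp of the replication fork, measured 842, 607, 819.6 and 878 in WT, 651, 728, 614 and 735 in WTMM and 609, 700.0, 807 and 697 in WTPP. The groups overlapped fully, and the log2 fold changes were -0.20 ± 0.12 and -0.15 ± 0.12 against WT. Tyms, thymidylate synthase, ran only from 227 to 310.2 over the 12 libraries. Rrm2, the small subunit of ribonucleotide reductase, varied more, from 48.1 in WTMM 6 to 132 in WTMM 8. At the G1 to S switch, E2f1, an activating E2F factor, ran from 28.3 in WTPP 3 to 99.8 in WTPP 6, and Ccne2, cyclin E2, from 42.3 in WTPP 2 to 144 in WTMM 9. None of these 5 passed the threshold in any comparison.

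Summing the members by role set the mice side by side. The 19 mitotic genes summed to 972, 354, 633 and 535 normalized counts in WT 116, 117, 118 and 120, to 364, 888, 1602 and 839 in WTMM 6 to 9, and to 371, 321, 1415 and 272 in WTPP 2, 3, 6 and 7. WTMM 8 and WTPP 6 were above the highest WT library, and the groups overlapped at their lower ends. Group means were 623 ± 259.5 in WT, 923 ± 511 in WTMM and 595 ± 548 in WTPP (SD, n = 4 each), so the SD within WTPP was close to its mean. The 8 licensing genes summed to 1173, 1234, 2431 and 2086 in WT, 839, 1139, 1436 and 1694 in WTMM, and 968, 949.6, 1781 and 646 in WTPP. The ratio of the mitotic to the licensing sum was 0.83 in WT 116 and 0.257 to 0.287 in the other WT libraries. It was 0.434, 0.780, 1.12 and 0.495 in WTMM 6 to 9, and 0.383, 0.338, 0.795 and 0.421 in WTPP 2, 3, 6 and 7. The mitotic sum exceeded the licensing sum in WTMM 8 alone of the 12.

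**Figure D3:**
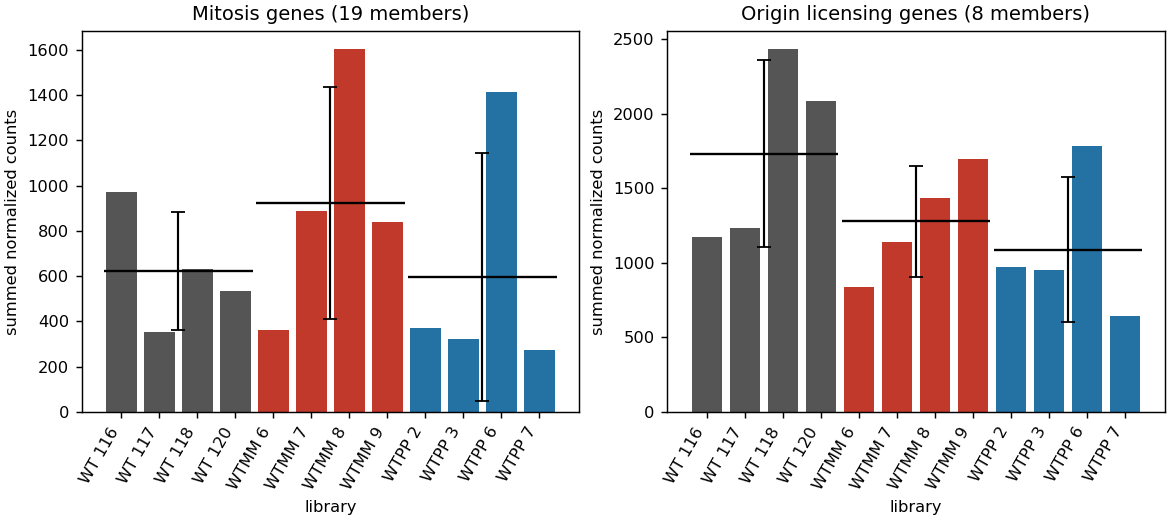
Summed normalized counts (vertical axes, from 0) of the 19 mitotic members (left) and the 8 licensing members (right) in each library; bars are libraries, coloured by group, and black lines with error bars give the mean and SD of each group of 4. WTMM 8 at 1602 and WTPP 6 at 1415 are the tallest mitotic bars, and WT 118 at 2431 the tallest licensing bar.

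Both sets also differed in the letters of their promoters, which the choice of members did not use. Windows from 250 bases before to 50 after the start of the gene were taken from RefSeq on GRCm38.p6 and searched on both strands for the CHR element (TTTGAA or TTCGAA), the CCAAT box (CCAAT) and an E2F site (TTTNGCGC or TTCCCGCC). The CHR is the element by which DREAM and B-Myb complexes are known to bind mitotic genes, and the CCAAT box is bound by NF-Y. Windows were found for 26 of the 32 members, 27 windows in all, since Mcm7 has a pair. The CHR letters were in 12 of 15 mitotic windows (80%), in 2 of 8 licensing windows (25%) and in 19.2% of all 32851 windows. CCAAT was in 93.3%, 75% and 37.4%. The E2F letters were in 1 mitotic window (6.67%), that of Cdk1, in 5 licensing windows (62.5%) and in 3.49% of all windows. CHR and CCAAT stood together in 80% of the mitotic and 7.52% of all windows. These are matches of letters, not measured binding.

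The stretches from 120 bases before to 30 after the start show the difference for a pair of mitotic genes, a pair of licensing genes and the steadiest member. Capitals mark matches to the CHR, CCAAT and E2F letters on either strand, and all 5 genes lie on the minus strand, so each is written in the direction of its transcription.
Cdk1 promoter, chr10:69352883-69353032, minus strand: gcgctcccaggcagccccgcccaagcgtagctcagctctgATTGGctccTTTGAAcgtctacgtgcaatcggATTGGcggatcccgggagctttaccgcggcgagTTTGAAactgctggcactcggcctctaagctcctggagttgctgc
Ccnb2 promoter, chr9:70421525-70421674, minus strand: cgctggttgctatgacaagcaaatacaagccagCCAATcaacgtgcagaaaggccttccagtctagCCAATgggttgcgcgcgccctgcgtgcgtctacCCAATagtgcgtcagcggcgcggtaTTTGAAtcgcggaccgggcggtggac
Mcm3 promoter, chr1:20820283-20820432, minus strand: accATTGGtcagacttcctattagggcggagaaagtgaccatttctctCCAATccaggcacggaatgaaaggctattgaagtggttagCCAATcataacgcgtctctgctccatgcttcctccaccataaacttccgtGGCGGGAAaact
Mcm6 promoter, chr1:128359676-128359825, minus strand: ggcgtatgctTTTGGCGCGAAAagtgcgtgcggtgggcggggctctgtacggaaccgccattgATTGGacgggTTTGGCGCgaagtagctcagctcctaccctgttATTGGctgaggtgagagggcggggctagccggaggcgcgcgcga
Tyms promoter, chr5:30073596-30073745, minus strand: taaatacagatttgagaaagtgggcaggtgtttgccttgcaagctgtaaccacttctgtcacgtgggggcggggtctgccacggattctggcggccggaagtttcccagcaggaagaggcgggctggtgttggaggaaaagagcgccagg
Cdk1 and Ccnb2 carried CHR matches next to CCAAT boxes within the stretch. The E2F match of Cdk1 counted above does not lie wholly within the printed stretch and is not marked. Mcm3 and Mcm6 carried CCAAT boxes with E2F matches and no CHR match, and the first capital run of Mcm6 is a pair of overlapping E2F matches, one on each strand. Tyms carried none of the letters searched. Of the printed genes, Cdk1, Ccnb2 and Mcm6 were highest in WTPP 6 and Mcm3 in WT 118.

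The results for WTPP rest heavily on WTPP 6. With it, 26 of 31 members were lower in estimate in WTPP than in WT and 0 were called. Without it the median log2 fold change of the members in WTPP against WT moved from -0.35 to -0.78, and 29 of 31 were negative. Mcm6 alone then passed the threshold (log2 fold change -2.44, adjusted p = 0.0286 from limma), where 3.82% of all genes fell. Members with an unadjusted p under 0.05 numbered 14 of 31, all lower, where 22.6% of genes had one. In WTMM against WTPP without WTPP 6, the median moved from 0.47 to 1.09 and 31 of 31 were positive. Cenpf alone passed the threshold (log2 fold change 2.86, adjusted p = 0.0171), where 1.68% of genes rose, and 17 of 31 members had an unadjusted p under 0.05, where 16.9% of genes had one. WTPP 6 was the highest of WTPP for 29 of 31 members, so leaving it out was bound to move most estimates in these directions. Since many members vary together, these counts do not stand for independent genes. WTPP 6 is 1 mouse of 4, and whether its level or that of its 3 companions is usual for the group cannot be read from these libraries. Leaving out WTMM 8 moved the median of WTMM against WT from 0.22 to -0.07, with 14 of 31 positive, and leaving out WTMM 6 moved it to 0.49, with 23 of 31 positive. In WTMM against WTPP without WTMM 8, 0 of 31 members had an unadjusted p under 0.05 from limma, where 16.8% of genes had one.

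The members varied more between mice of a group than most genes, as other mitosis genes and some marker lists also did. The SD within groups on the log2 scale had a median of 0.83 over the 31 tested members and 0.207 over all tested genes. It lay above the median of all genes for 29 members, with Tyms and Pcna as the exceptions, and above the 90th percentile of all genes, 0.532, for 26. The 42 tested other mitosis genes had a median SD of 0.758, and the medians of the erythroid and pancreatic acinar markers, 1.33 and 1.12, were above that of the members. Counting alone would give the members a median SD of 0.239, and all 31 members lay above their own counting SD. Cenpf (1.45), Ccnb1 (1.43), Mcm6 (1.35) and Cdc6 (1.33) varied most, and Tyms (0.148), Pcna (0.184) and Mcm7 (0.245) least. Low counts widen the SD of any gene, and the counting SD of the members, 0.239, is by itself above the 0.207 of all genes. The comparison with all genes is not matched for level, so part of the excess comes with low counts. No value against genes of the same level was computed.

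**Figure D4:**
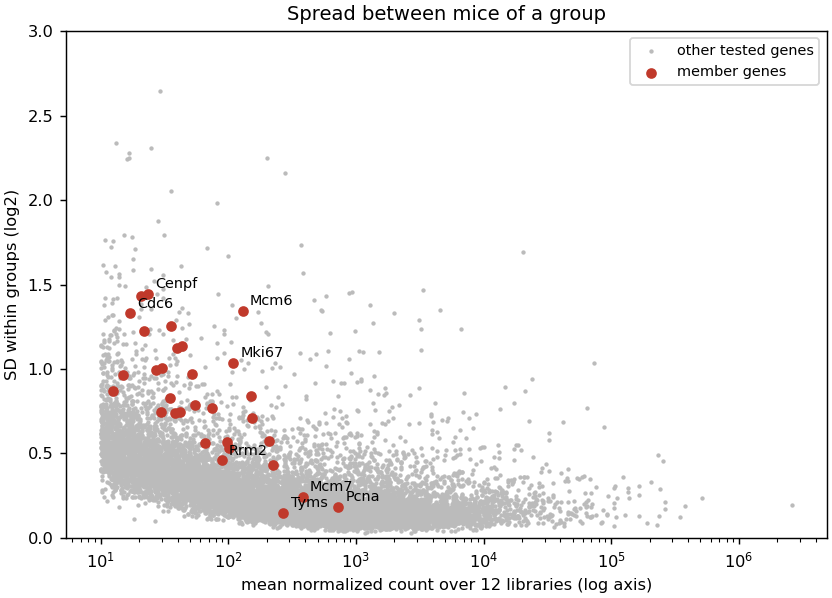
SD within groups on the log2 scale (vertical axis) against the mean normalized count over 12 libraries (horizontal log axis) for all tested genes in grey and the 31 tested members in red. Most members lie above the bulk of genes of their level, and Pcna, Tyms and Mcm7 lie within it.

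Per length of transcript the members spanned a wide range of levels, led by the replication genes. Mean normalized counts per kilobase of exon were 302 for Pcna, 86.2 for Mcm7, 59.3 for Mcm3, 57.8 for Mcm4 and 44.3 for Tyms. The highest mitotic genes were Cdc20 at 23.3 and Ccnb2 at 23.1, and the lowest members were Bub1 at 2.08 and Cenpf at 1.52. Mki67, with a mean of 108.7 normalized counts, came to 10.8 per kilobase.

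Genes of the same pathways outside the 32 gave some changes between groups, from 4 lists, to be read beside the shares over all tested genes. Those shares were 4.44% higher and 5.94% lower in WTMM against WT, and 4.68% and 5.53% in WTPP against WT. In WTMM against WTPP they were 2.29% and 1.88%. Whether a list as a whole differed from all genes was not tested. Of 42 tested other mitosis genes, 2 rose and 0 fell in WTMM against WT. Pttg1, securin, measured 75.5, 63.7, 75.2 and 64.7 in WT, 116, 524, 451 and 446 in WTMM and 113, 88.5, 126 and 75.8 in WTPP. Every WTMM library was above every WT library, and WTMM 6 lay inside the WTPP range. It rose 4.73-fold against WT (log2 fold change 2.24 ± 0.37, adjusted p = 0.00324), a call kept in every alternative tried, and was 3.34-fold higher in WTMM than in WTPP (adjusted p = 0.0196). The latter call was lost without WTMM 7, WTMM 8, WTMM 9 or WTPP 3.

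Spc25, a subunit of the Ndc80 kinetochore complex, measured 81.8, 77.8, 137 and 90.5 in WT, 290.0, 181, 189 and 309.5 in WTMM and 141, 74.3, 165 and 85.9 in WTPP. The WTMM libraries were above all others. It rose 2.48-fold against WT (log2 fold change 1.31 ± 0.27, adjusted p = 0.0102), also kept in every alternative, and was 2.12-fold higher than in WTPP (adjusted p = 0.0405), a call lost without any library other than WT 117, WT 118, WTMM 7, WTPP 2 and WTPP 6. WTMM 6, the lowest WTMM library for the mitotic members, thus held 290.0 of Spc25, the second of its group, and 116 of Pttg1, the lowest. In WTPP against WT, 1 of 42 rose and 0 fell. Ccnf, cyclin F, a subunit of a ubiquitin ligase, measured 54.6 to 95.0 in WT, 23.5 to 91.7 in WTMM and 258, 395, 109.7 and 203 in WTPP, with no WTPP library inside the range of the others. It rose 3.02-fold (log2 fold change 1.59 ± 0.42, adjusted p = 0.0298), and its lowest WTPP library was WTPP 6. That call was lost without any 1 of the WT libraries or without WTPP 2, WTPP 3 or WTPP 7. In WTMM against WTPP 2 rose (Pttg1 and Spc25) and 1 fell, Ccnf, 3.53-fold lower (adjusted p = 0.0292), lost without WTPP 2, WTPP 3 or WTPP 7.

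Of 34 tested G1 regulators and inhibitors, 1 rose and 1 fell in WTMM against WT. Rbl1, the pocket protein p107 that restrains E2F, measured 278, 143, 316 and 329 in WT, 85.1, 119.7, 132 and 106 in WTMM and 154, 135, 152 and 86.8 in WTPP. It was 2.31-fold lower in WTMM (log2 fold change -1.21 ± 0.26, adjusted p = 0.0115) and 1.97-fold lower in WTPP (adjusted p = 0.0301), with WT 117 the closest WT library to both lineages. The call in WTPP was lost without WT 116, WT 118, WT 120 or WTPP 7. E2f8, an atypical repressing E2F that mouse liver cells need to become polyploid, measured 147 to 211 in WT, 208, 358, 260.4 and 477 in WTMM and 136 to 211 in WTPP. It was 1.75-fold higher in WTMM than in WT (adjusted p = 0.039), lost without any 1 of the WT libraries, WTMM 7 or WTMM 9. Of its 5443 exon bases, 610 are shared with Gm2788 on the opposite strand, so that its reads are uncertain.

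In WTPP against WT, 4 of the 34 rose and 2 fell, and the 4 with the smallest adjusted p are named. Tfdp2, a partner of E2F factors, rose 1.38-fold from 522 ± 41.4 to 720.5 ± 74.1 (adjusted p = 0.0105), with no overlap between groups, a call kept on leaving out any 1 library but not in every alternative tried. Rbl2, the pocket protein p130 of the DREAM complex, rose 1.24-fold (adjusted p = 0.0273), lost without WT 116, WT 118, WTPP 6 or WTPP 7. Of its 7558 exon bases, 1585 are shared with Aktip and Gm45464 on the opposite strand, so that its reads are uncertain too. E2f2, an activating E2F, was 2.26-fold lower, from 99.9 ± 32.8 to 45.1 ± 16.8 (adjusted p = 0.0343), lost without WT 118, WT 120, WTPP 3 or WTPP 7, and Rbl1 is given above. In WTMM against WTPP, 2 rose and 0 fell. Cdc25a, a phosphatase that activates cyclin-dependent kinases, was 1.44-fold higher (adjusted p = 0.0411), lost without any library other than WT 117 and WTPP 2. E2f8 was 1.85-fold higher (adjusted p = 0.0438), lost without any library other than WT 117, WTMM 6 and WTPP 7. Cdkn1a, the inhibitor p21, was not called. It measured 159, 49.5, 67.9 and 51.5 in WT, 23.5, 48.4, 116 and 41.4 in WTMM and 616, 106, 78.7 and 24.7 in WTPP, so that WTPP 2 stood apart, and its log2 fold change in WTPP against WT was 0.55 ± 0.75 (adjusted p = 0.69).

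Of 43 tested other replication factors, 2 rose and 1 fell in WTMM against WT. Orc5, a subunit of the origin recognition complex, rose 1.26-fold from 535 ± 5.85 to 675 ± 34.6 (adjusted p = 0.0212), lost without WT 118, WTMM 6 or WTMM 8. Gins4, of the GINS part of the replicative helicase, rose 1.25-fold (adjusted p = 0.0401), lost without any library other than WT 117, WTPP 2, WTPP 6 and WTPP 7. Pold2, a subunit of DNA polymerase delta, was 1.27-fold lower (adjusted p = 0.048), lost without any WT or WTMM library or WTPP 6. In WTPP against WT, 1 fell. Fen1, the flap nuclease that trims Okazaki fragments, measured 185, 149.5, 222 and 201.3 in WT, 115, 126, 158 and 140.0 in WTMM and 94.9, 109, 105 and 71.3 in WTPP. It was 1.99-fold lower in WTPP (log2 fold change -0.99 ± 0.17, adjusted p = 0.00365), with no overlap and a call kept in every alternative tried. Of its 2422 exon bases, 2039 are shared with genes on the opposite strand, Tmem258 and Gm10143, so that its reads are uncertain. In WTMM against WTPP, 1 rose, Orc5, 1.29-fold (adjusted p = 0.0237), lost without WTMM 6, WTMM 8, WTPP 3, WTPP 6 or WTPP 7, and 0 fell. Of 10 tested fork and damage response genes, 1 rose in WTMM against WT, Mdm2, the p53 ubiquitin ligase, 1.32-fold (adjusted p = 0.0384), kept on leaving out WT 120, WTMM 8 or any WTPP library but lost without any other library. None of the 10 changed in the other comparisons, where 3 and 0 had an unadjusted p under 0.05, against 26.6% and 18.6% of all genes.

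**Figure D5:**
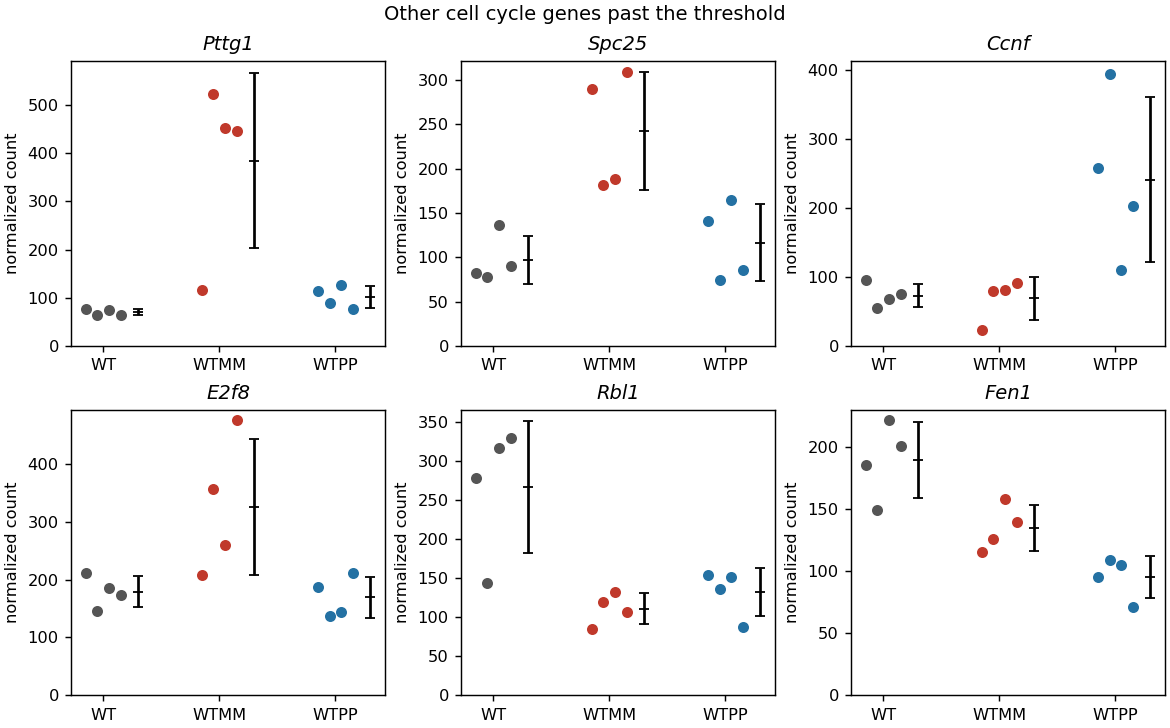
Normalized counts (vertical axes, from 0) of 6 other cell cycle genes in the 3 groups; points are libraries and the bars beside them give the mean and SD of 4. Pttg1 and Spc25 are high in WTMM, Ccnf is high in WTPP at 109.7 to 395, Rbl1 is lower in both lineages than in WT, and Fen1 is lower in WTPP, while its WTMM libraries overlap those of WT.

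Markers of some other liver cells also moved with the groups, and their part in the results on the members was not tested. Over all tested genes, 5.94% fell in WTMM and 5.53% in WTPP against WT. The 12 macrophage and Kupffer cell markers summed to 46712, 21596, 32072 and 32196 in WT 116, 117, 118 and 120, to 13944 to 18627 in WTMM and to 14604 to 18942 in WTPP. Of these 12, 11 fell in WTMM and 12 in WTPP against WT. The 12 T and NK cell markers summed to 447 to 998 in WT, 223 to 255 in WTMM and 272 to 332 in WTPP, and 10 and 5 of them fell. The 9 B cell markers summed to 629 to 1375, 275 to 433 and 386 to 658, and 6 and 3 fell. The 9 erythroid markers summed to 9931 to 24362, 3221 to 8383 and 962 to 17151, and 1 and 0 of the 7 tested fell. The 8 neutrophil markers summed to 124 to 523, 55.7 to 90.7 and 67.6 to 162, and 3 and 0 of the 3 tested fell. The 11 pancreatic acinar markers summed to 1219 to 3625 in WT, 1330.2 to 1736 in WTMM and 483 to 1250.5 in WTPP. Although these sums overlapped between WT and both lineages, 7 of the 9 tested acinar markers fell in WTMM and 7 in WTPP. Of the 6 endothelial markers, 0 changed in either lineage against WT. Of the 6 stellate cell markers, 1 fell in WTMM and 0 changed in WTPP. Of the 4 tested cholangiocyte markers, 1 fell in WTMM and 1 rose in WTPP. Of the 7 tested hepatocyte markers, 1 fell in each lineage. None of the listed markers was at 0 in all libraries.

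WT 116 was the highest of the WT libraries and WT 117 the lowest in the macrophage, T and NK cell, B cell, neutrophil and pancreatic sums, as in the mitotic sum. It was also the highest of WT in the erythroid sum, at 24362, where WT 118 was lowest. The licensing sum was highest in WT 118 and lowest in WT 116. WTMM 8, with the highest mitotic sum of its group at 1602, had macrophage and B cell marker sums of 17138 and 381, inside the range of the other WTMM libraries, and a T and NK cell sum of 255, against 223 to 251 in the others. Its erythroid sum of 8383 stood apart from the 3221 to 4302 of the others. WTPP 6, at 1415, had the highest macrophage sum of WTPP (18942 against 14604 to 16111) and an erythroid sum of 3442, inside the range of the others.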

How the data were processed

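RNA of 12 livers was sequenced. Per the labels' protocols, extraction used a lipid tissue kit and libraries were directional. The submitters' processing notes name GRCm38 with cutadapt, HISAT2 and the authors' DESeq2, and the sources used here give no version, role or gene counter. The authors deposited log2 values, log2(normalized count + 0.1), and 100% of them came back as whole reads to within 0.001 of a read. Genes were matched to GENCODE M21 by Ensembl ID (25016 of 25069).

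Genes were tested on log2(normalized count + 1) with limma 3.58.1 (R 4.3.3), a scale that understates changes of low genes. It used 1 fit of 3 group means over 12 libraries with a mean-variance trend, for the 14473 genes with a mean of at least 10. Benjamini-Hochberg adjustment was made at 0.05. Every adjusted p comes from this fit, except those given for an alternative or for a left-out library, which come from a refit. The test was tried on simulated data. The 32 members, the other lists and the named genes were chosen with earlier results of these data known: values in every library for called members, Mki67, Top2a, Cdk1, Mcm2 and Pcna, and up to 4 called genes per other list and comparison, with Cdkn1a. Bub1b, Cenpf, Mcm6, Mcm7 and examples for other members were added after their values were seen. The result for 1 gene of the other lists is not reported here. No pair of libraries within a group agreed within counting noise (chi-square per gene between 22.96 and 90.98 on average), and nothing says that they share a batch. The WT library numbers stand apart from the others, and a batch that followed them cannot be told apart from ancestry. Alternatives were other pseudocounts, filters, scalings and variance models, voom, array weights, a replicate block and leaving out each library. Promoter sequences are RefSeq's on GRCm38.p6.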

Additional observations from a re-analysis of the deposited data

Results flagged for a closer look

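Of 141 groups of 4 values examined among the members and the other named genes, 8 held a library far from the other 3, where chance alone gives about 1 in 20, or 7.05. WTPP 6 was high in 3 of them: Cdc20 at 98.7 normalized counts (11.9 to 15.5 in the other WTPP libraries), Birc5 at 73.2 (17.7 to 20.1) and Kif20a at 111 (19.5 to 25.8). WTMM 8 was high for Birc5 at 96.7 (35.5 to 39.6). WT 117 was low for Ccna2 at 9.09 (35.1 to 42.0). WTMM 6 was low for Cdc6 at 1.12 (15.9 to 18.7), for Ccnf at 23.5 (79.2 to 91.7) and for Pttg1 at 116 (446 to 524).

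The lineages differed from each other in the direct test of WTMM against WTPP for 6 named genes outside the 32. Log2 fold changes were -1.82 for Ccnf, 0.53 for Cdc25a, 0.89 for E2f8, 0.37 for Orc5, 1.74 for Pttg1 and 1.08 for Spc25, with adjusted p of 0.0196 to 0.0438 from limma.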

How the results depend on the processing

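The count of changed members was 0 under each alternative run except the following, all with 31 members tested. Array weights gave 1 in WTMM against WT (Mcm7) and 3 in WTPP against WT (Mcm2, Mcm3 and Mcm7), all lower, where 10.2% and 7.8% of all genes fell. Leaving out a library gave 0 to 1 in each comparison. In WTMM against WT it was Bub1b, higher without WT 116, where 356 of 14421 genes rose. In WTPP against WT it was Mcm7, lower without WTMM 9 or WTPP 2, where 730 of 14471 and 712 of 14463 genes fell. Mcm6 was also called there, lower without WTPP 6, where 3.82% of genes fell. In WTMM against WTPP it was Cenpf, higher without WTPP 6, where 1.68% of genes rose. The cause was not tested. With the replicate block for the shared numbers 6 and 7 the count was 0 in each comparison. Same-numbered libraries did not deviate together (r of -0.15 and -0.066 across genes), so that the numbers were not taken as pairs; with the block Rbl1, E2f8, Gins4, Mdm2, Orc5 and Pold2 in WTMM against WT, Rbl1, Rbl2, E2f2 and Tfdp2 in WTPP against WT and Cdc25a in WTMM against WTPP were no longer called, and the genes called over all tested went from 1502, 1479 and 603 to 603, 497 and 455.

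Signs turned only for fold changes that were not called. Mki67, WTMM against WT, became 0.0046 with a pseudocount of 5, 0.091 with quantile normalization, 0.0017 with TMM factors, 0.033 with array weights and 0.064 with the replicate block, and -0.37 to 0.47 on leaving out a library. Top2a in WTMM became -0.074 with array weights and -0.23 to 0.40 on leaving out a library. Cdkn1a in WTMM became 0.31 with the replicate block, and ranged from -0.29 to 1.24 in WTPP on leaving out a library. On leaving out a library Cdc6 in WTMM against WTPP ranged from -0.14 to 1.11, Pcna from -0.11 to 0.027 and Cdk1 in WTPP against WT from -0.65 to 0.14. Of 21 called fold changes, 3 kept their call in every alternative run: Pttg1 and Spc25 in WTMM and Fen1 in WTPP, both lineages against WT. The planned edgeR and DESeq2 fits were not run, since the deposited unit is a log2 value. With 4 mice per group and members of low count, differences of the size of the standard errors given could not be detected.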
